A study of Mus musculus with 2 samples.

Results

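The comparison described here is the step from gate 2 to gate 3 of a Venus sort. The cells were NIH3T3-Rev-VNP1-H2B-iRFP mouse fibroblasts, an NIH3T3 derivative that carries a Venus reporter of Nr1d1 and an H2B-iRFP nuclear label, iRFP being a near-infrared fluorescent protein. They were grown without synchronization to 95% confluency, about 5 days after seeding, with no treatment, and all gates share this genotype and culture. Single live cells were sorted into the wells of 2 plates of 384 and sequenced by FLASH-seq, which reads full-length transcripts of single cells. The labels do not say whether the line is 1 clone or whether the plates came from separate cultures. The fit takes up a constant difference between plates. Its p-values therefore measure how far the differences between all gates varied from plate to plate, and that spread may be technical.

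On each plate the 4 sort gates were ordered from 1 to 4 by their median Venus fluorescence, and gate 3 was set against gate 2. Each gate held 96 wells per plate. Of the 768 cells in all, 767 had at least 1000 genes detected and were kept, and 384 of these lay in gates 2 and 3, with 192 on each plate. No pair of cells held identical counts. Raw counts were summed per plate and gate, and the gates were paired by plate. The sorting record placed only the high RFP sort on plate 1 and only the low RFP sort on plate 2, so plate and H2B-iRFP sort cannot be told apart. Gate 2 filled well columns 7 to 12 and gate 3 columns 13 to 18 on both plates, so gate and plate position cannot be told apart either.

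The circadian clock of a mammalian cell is a transcriptional loop. CLOCK and BMAL1, the product of Arntl, bind E-box sequences and activate the Per and Cry genes, the Rev-erb genes Nr1d1 and Nr1d2, and the PAR bZIP genes Dbp, Tef and Hlf. The PAR bZIP proteins activate genes through D-boxes, where NFIL3 competes with them, and the Rev-erb proteins repress Arntl, Nfil3 and other genes through ROR elements. Fibroblasts such as NIH3T3 run this loop cell by cell, so an unsynchronized culture holds cells at many phases. A fluorescent reporter of Nr1d1 sorts them by reporter level, and whether that level orders them by phase was not tested.

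The sums of gates 2 and 3 held 76477681 to 86612194 counts. The median cell of each gate held between 856097 and 895859 counts. Gate 2 of plate 2 held 6 shallow cells, under 0.25 of their plate's median total, and the other sums of these gates held 0. Without the shallow cells edgeR called the same 12 genes. The line carried its fibroblast markers, with 10 of 10 detected and a summed level of 25362 to 29087 CPM (counts scaled to a common library total) in these 4 sums. Markers of endothelial cells and adipocytes summed to less than 1 CPM, those of muscle to between 1.53 and 3.37 CPM and those of immune cells to between 6.42 and 7.84 CPM, nearly all from Lyz2. Epithelial markers summed to 33.8 and 26.2 CPM in gate 3 and to 41.9 and 35.1 CPM in gate 2, nearly all from Krt14, and their part in the results below was not tested.

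The sorted protein itself was read first. On plate 1 the brightest cell of gate 2 read 4265263 units and the dimmest cell of gate 3 read 5128417 units. On plate 2 these limits were 4829208 and 5308836 units. The gates therefore did not overlap in Venus, and the median rose by 1.55 log2 units on plate 1 and by 1.61 on plate 2, close to the 1.43 and 1.5 from gate 1 to gate 2 and below the 2.15 and 1.94 from gate 3 to gate 4.

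Other channels of the sorting record moved less. Median forward scatter, which is related to cell size, differed by -5.69% in gate 3 on plate 1 and by -8.23% on plate 2. Far-red fluorescence, the iRFP channel, differed by -5.77% and -13.4%, and violet side scatter by -3.36% and -10.1%. A cell of gate 3 had the larger forward scatter in 44.4% of all pairs with cells of gate 2 on plate 1 and in 39.1% on plate 2. The iRFP transcript stood at 38.8 CPM in gate 2 and 39.7 CPM in gate 3 on plate 1, and at 17.6 and 17.5 CPM on plate 2, a log2 difference of 0.01 ± 0.10 (SE; edgeR, adjusted p = 0.995). With 2 plates an exact permutation test of a single channel cannot go below p = 0.5, so none was made, and the part of cell size in the results below was not tested.

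Because the members of the loop are grouped by the elements that regulate them, the start regions of 5 genes that moved at this step are shown. Each run covers 250 bases before and 50 bases after the RefSeq start site (GRCm38.p6), printed 5′ to 3′ on the gene's strand. Capitals mark matches to an E-box (CACGTG), a D-box (TTACGTAA or TTATGTAA) or the core of a ROR element (AGGTCA or GGGTCA), searched on both strands. The windows are chr7:45704997-45705296 (+) for Dbp, chr14:18239057-18239356 (-) for Nr1d2, chr15:81802423-81802722 (+) for Tef, chr4:151044616-151044915 (-) for Per3 and chr7:113207261-113207560 (+) for Arntl. Tef and Arntl each have 2 RefSeq start sites, and the window with a match is shown for Arntl.
Dbp: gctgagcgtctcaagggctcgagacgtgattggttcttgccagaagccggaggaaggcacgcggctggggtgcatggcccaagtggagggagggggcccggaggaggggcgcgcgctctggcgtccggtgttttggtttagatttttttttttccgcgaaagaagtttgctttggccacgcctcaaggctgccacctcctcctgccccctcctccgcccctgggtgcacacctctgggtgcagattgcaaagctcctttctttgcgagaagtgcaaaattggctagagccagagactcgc
Nr1d2: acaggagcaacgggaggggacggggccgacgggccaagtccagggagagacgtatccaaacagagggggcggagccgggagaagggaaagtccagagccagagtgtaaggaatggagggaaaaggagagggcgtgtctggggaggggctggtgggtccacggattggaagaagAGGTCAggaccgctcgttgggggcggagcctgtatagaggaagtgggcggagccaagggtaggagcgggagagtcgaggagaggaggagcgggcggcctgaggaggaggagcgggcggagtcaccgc
Tef: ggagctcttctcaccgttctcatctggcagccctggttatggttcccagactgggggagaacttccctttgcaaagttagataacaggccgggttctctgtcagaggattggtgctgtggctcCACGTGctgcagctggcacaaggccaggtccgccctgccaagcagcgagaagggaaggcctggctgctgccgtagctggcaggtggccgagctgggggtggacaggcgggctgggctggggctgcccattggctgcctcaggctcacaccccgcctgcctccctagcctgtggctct
Per3: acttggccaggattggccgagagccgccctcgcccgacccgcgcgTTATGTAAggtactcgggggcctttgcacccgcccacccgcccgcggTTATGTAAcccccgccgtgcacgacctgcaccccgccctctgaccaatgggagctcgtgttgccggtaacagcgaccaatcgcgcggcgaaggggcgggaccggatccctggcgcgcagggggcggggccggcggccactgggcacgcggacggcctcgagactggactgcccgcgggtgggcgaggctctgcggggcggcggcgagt
Arntl: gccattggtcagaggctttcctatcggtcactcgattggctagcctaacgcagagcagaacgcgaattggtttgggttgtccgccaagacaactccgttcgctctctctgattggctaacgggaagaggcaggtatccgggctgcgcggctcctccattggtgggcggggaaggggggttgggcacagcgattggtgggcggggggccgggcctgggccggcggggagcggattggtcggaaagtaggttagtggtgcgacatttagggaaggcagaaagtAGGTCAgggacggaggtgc

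The Per3 window holds the D-box letters TTATGTAA at 2 places, starting 205 and 158 bases before the start site. Of 32851 windows of the same length, 1.06% hold a D-box match. The Tef window holds CACGTG 127 bases before the start, a match found in 7.15% of windows, and the other Tef start site has one 138 bases before it. Nr1d2 has AGGTCA 77 bases before the start and Arntl has it 32 bases after the start, where 27.5% of all windows hold such a core. The Dbp window holds none of these letters. The marks in these windows do not separate the groups. Nr1d2, listed with the E-box and D-box genes, holds only the ROR core, as Arntl does. A match is a description of the sequence, and the counts of this study do not bear on binding.

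The step was tested for 18430 genes with edgeR's quasi-likelihood test on 8 sums, with plate as a block and Benjamini-Hochberg adjustment over all genes. A gene was called at an adjusted p under 0.05, and log2 changes are gate 3 minus gate 2 with their standard error. The test called 12 genes (0.0651% of those tested), 8 higher and 4 lower in gate 3. They were YFP, Nr1d1, Dbp, Nr1d2, Per3, Tef, Erg28 and Cyp51 on the higher side and Mmp11, Arntl, Rnase4 and Kcnip4 on the lower side. At an unadjusted p under 0.05 there were 1668 genes (9.05%). CPM values below are scaled by the total of each sum alone.

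The transcripts of the reporter and of Nr1d1 serve as a check of the gates. YFP, the reporter sequence, stood at 93.6 CPM in gate 2 and 278 CPM in gate 3 on plate 1, and at 107 and 287 CPM on plate 2. Its log2 change was 1.49 ± 0.06, with an adjusted p of 0.000346 by edgeR. Nr1d1, which encodes the repressor REV-ERB alpha, stood at 212 and 541 CPM on plate 1 and at 222 and 536 CPM on plate 2, a change of 1.31 ± 0.06. The gates were set on the Venus protein of this reporter, so both values describe the sort. The ratio of Nr1d1 to YFP was 2.26 in gate 2 and 1.95 in gate 3 on plate 1, and 2.07 and 1.87 on plate 2. Nr1d1 overlaps Thra on the other strand in GENCODE vM21, and whether the counting used strand is not given in the sources used here.

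**Figure D1:**
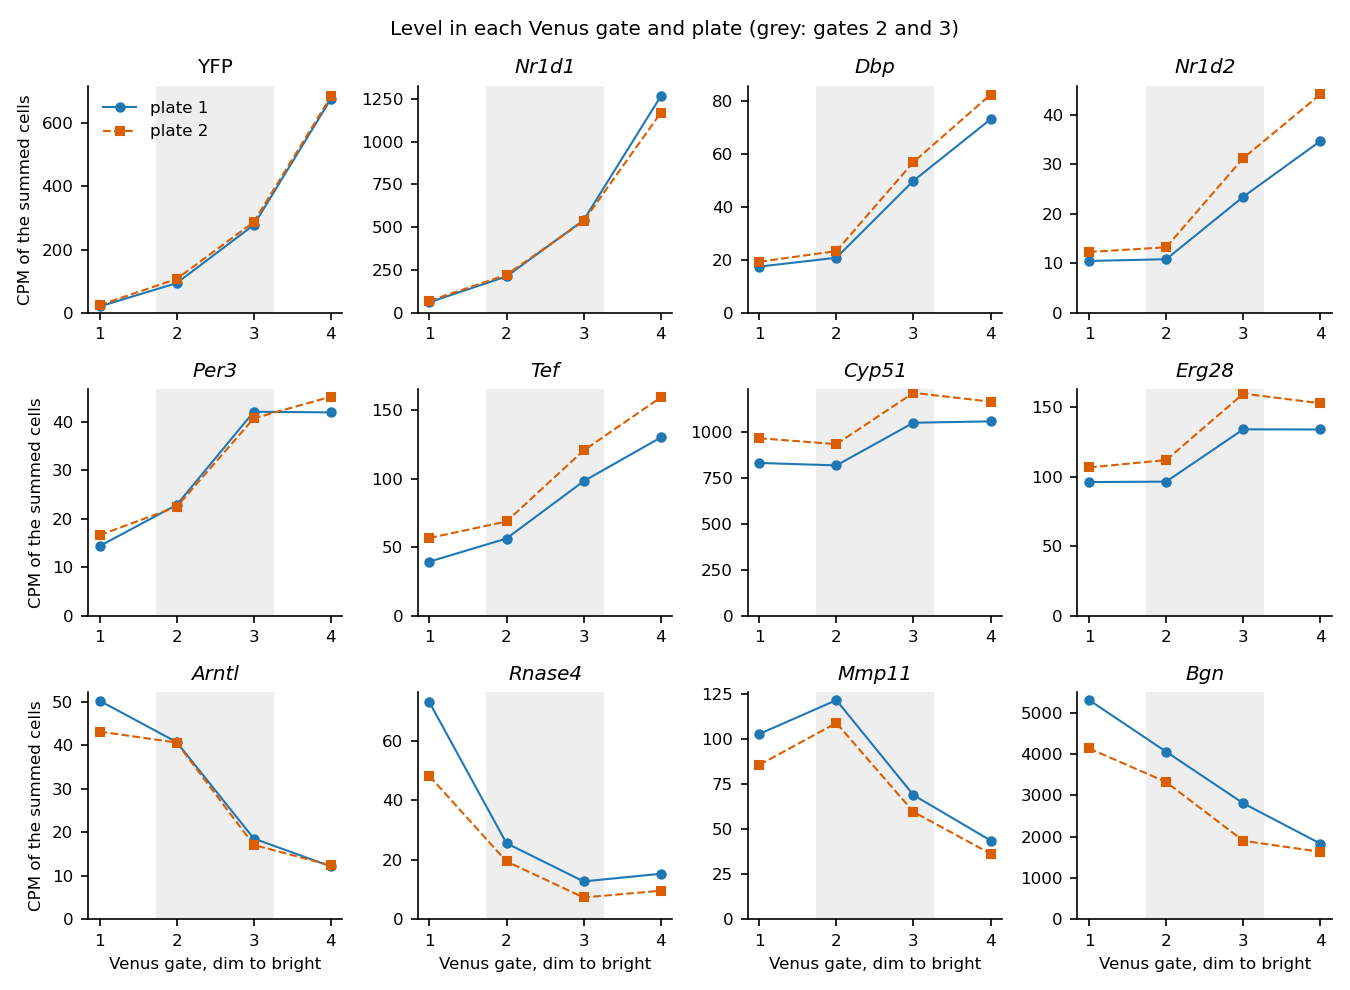
CPM of the summed cells (vertical axes, each from 0) in Venus gates 1 to 4 (horizontal axes) for YFP and 11 genes, with plate 1 as circles and plate 2 as squares. Between gates 2 and 3, in grey, Dbp went from 20.8 to 49.9 CPM on plate 1 and from 23.3 to 56.9 CPM on plate 2, and Arntl from 40.7 to 18.5 and from 40.6 to 17.0 CPM.

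Of the E-box and D-box targets in the clock list, Dbp and Nr1d2 had the largest called changes after Nr1d1. The step was chosen with the changes of these 2 genes known, so their p-values are not independent support. Dbp, a PAR bZIP activator, stood at 20.8 CPM in gate 2 and 49.9 CPM in gate 3 on plate 1, and at 23.3 and 56.9 CPM on plate 2. Both gate 3 sums lay above both gate 2 sums. The log2 change was 1.27 ± 0.07, with an adjusted p of 0.000511 by edgeR. How many of all genes had sums that separate in this way was not counted, here or for the genes below. Nr1d2, which encodes REV-ERB beta, stood at 10.8 and 23.4 CPM on plate 1 and at 13.2 and 31.2 CPM on plate 2. Its sums did not overlap between the gates either, and its change was 1.18 ± 0.09 with an adjusted p of 0.00508 by edgeR. In the reference annotation Dbp overlaps Sphk2, while Nr1d2 overlaps no other gene model.

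Tef, another PAR bZIP gene, rose from 56.4 to 98.2 CPM on plate 1 and from 68.9 to 121 CPM on plate 2. Its log2 change was 0.80 ± 0.07 with an adjusted p of 0.00823 by edgeR. Per3, a period gene, rose from 22.9 to 42.0 CPM on plate 1 and from 22.5 to 40.7 CPM on plate 2, by 0.86 ± 0.08 with an adjusted p of 0.0194. For both genes the lower gate 3 sum lay above the higher gate 2 sum. Tef overlaps an antisense model and Per3 overlaps Camta1, so reads shared with those models make their counts uncertain.

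Arntl, which encodes the activator BMAL1 and is a target of the Rev-erb repressors, moved the other way. It fell from 40.7 to 18.5 CPM on plate 1 and from 40.6 to 17.0 CPM on plate 2. The log2 change was -1.20 ± 0.09 with an adjusted p of 0.00508 by edgeR, and the gates did not overlap. Arntl overlaps an antisense model. No other gene of the RORE group was called. Nfil3, the competitor at D-boxes, stood at 18.8 and 16.5 CPM on plate 1 and at 20.6 and 7.53 CPM on plate 2, so its difference of -0.81 ± 0.24 came almost wholly from plate 2 and had an adjusted p of 0.427 by edgeR.

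Further E-box targets stood higher in gate 3 on both plates without passing the test. Ciart, a repressor of CLOCK and BMAL1, stood at 2.49 and 5.23 CPM on plate 1 and at 1.57 and 6.30 CPM on plate 2, with the largest difference of the list, 1.52 ± 0.23, and an adjusted p of 0.120 by edgeR. Per2 stood at 4.80 and 8.12 CPM on plate 1 and at 3.98 and 9.86 CPM on plate 2 (1.00 ± 0.23, adjusted p of 0.278 by edgeR). Per1 stood at 16.5 and 23.7 CPM on plate 1 and at 19.2 and 28.7 CPM on plate 2 (0.55 ± 0.10, adjusted p of 0.165 by edgeR). Each of these genes had gate 3 above gate 2 on both plates. The bHLH repressor genes Bhlhe40 and Bhlhe41 had differences of 0.43 ± 0.07 and 0.66 ± 0.10, and edgeR gave adjusted p-values of 0.144 and 0.126.

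Several clock genes differed little at this step. Clock, the partner of Arntl, stood at 18 and 17.3 CPM on plate 1 and at 18.9 and 18.8 CPM on plate 2, a difference of -0.04 ± 0.12. The cryptochromes Cry1 and Cry2 had differences of -0.01 ± 0.10 and 0.17 ± 0.09, Rora, an activator at ROR elements, 0.16 ± 0.09, and Usp2, a deubiquitinase, -0.17 ± 0.23. Hlf and Npas2 were at most 0.312 CPM in these sums, so nothing can be read from them at this depth. As a group, 12 of the 13 E-box and D-box genes had a positive difference, 5 were called higher (0.0434% of all genes tested were) and 10 had an unadjusted p under 0.05 in that direction (4.23% of all genes). Their median was 0.86, against 0.00 for all genes. Nr1d1, whose reporter set the gates, is among these. Of the other 18 clock genes 4 were called higher and 1 lower, and 9 had an unadjusted p under 0.05 on the higher side. Those 4 were Dbp, Nr1d2, Tef and Per3. The step was chosen with the changes of Dbp and Nr1d2 known, so the counts and the median of this group are descriptions. Of the 6 RORE genes 1 was called lower (0.0217% of all genes were), and their median was -0.02.

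Regulators and outputs of the loop gave no call at this step, where 0.0651% of all genes were called. Of 14 kinases, ubiquitin ligase subunits and deubiquitinases in the list of clock modifiers, none was called, and their median was -0.02. The most abundant of them, Csnk1d and Gsk3b, had differences of -0.07 ± 0.05 and -0.04 ± 0.05. Of 15 tested output genes, none was called, 2 had an unadjusted p under 0.05 on the higher side (4.23% of all genes) and 1 on the lower side (4.82%), and their median was 0.04. Gstm1 and Cebpb, the most abundant, had differences of 0.16 ± 0.06 and 0.00 ± 0.11.

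The differences of Nr1d2, Dbp, Tef, Per3 and Arntl, read cell by cell, were not confined to a few cells. Of the uncalled clock genes, Ciart had a count in 49 of 96 gate 3 cells on plate 1 and in 53 on plate 2. Per2 had one in 60 and 65. A count of Nr1d2 was present in 74.0% of gate 2 cells (exact binomial 95% interval 64.0% to 82.4%) and in 96.9% of gate 3 cells (91.1% to 99.4%) on plate 1. On plate 2 the shares were 80.2% (70.8% to 87.6%) and 93.8% (86.9% to 97.7%). After thinning to 300000 counts a cell, the shares were 66.7% and 94.8% on plate 1, over the same cells. On plate 2 they were 72.1% and 90.6%, but 10 cells of gate 2 were too shallow and were left out, so that the first share is over 86 cells. These intervals cover only the sampling of cells within a plate and gate, taken as independent draws. Cells of 1 gate share a plate, and reads amplified by PCR are not independent molecules, which the intervals do not cover.

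The median cell moved with the sums. For Dbp it went from 13.0 to 43.3 CPM on plate 1 and from 15.6 to 49.4 CPM on plate 2, and a gate 3 cell was higher than a gate 2 cell in 81.1% and 80.6% of all pairs. For Nr1d2 the share of such pairs was 78.2% and 74.1%, for Tef 77.9% and 77% and for Per3 71.9% and 72.6%. For Arntl the median cell went from 33.2 to 12.6 CPM on plate 1 and from 36.2 to 10.9 CPM on plate 2, and gate 3 was higher in only 23.9% and 23.5% of pairs. The distributions still overlapped widely, and 80 of 96 gate 3 cells on plate 1 and 71 of 96 on plate 2 still had an Arntl count. Cells of 1 gate share a plate, so these shares are descriptions and were not tested.

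**Figure D2:**
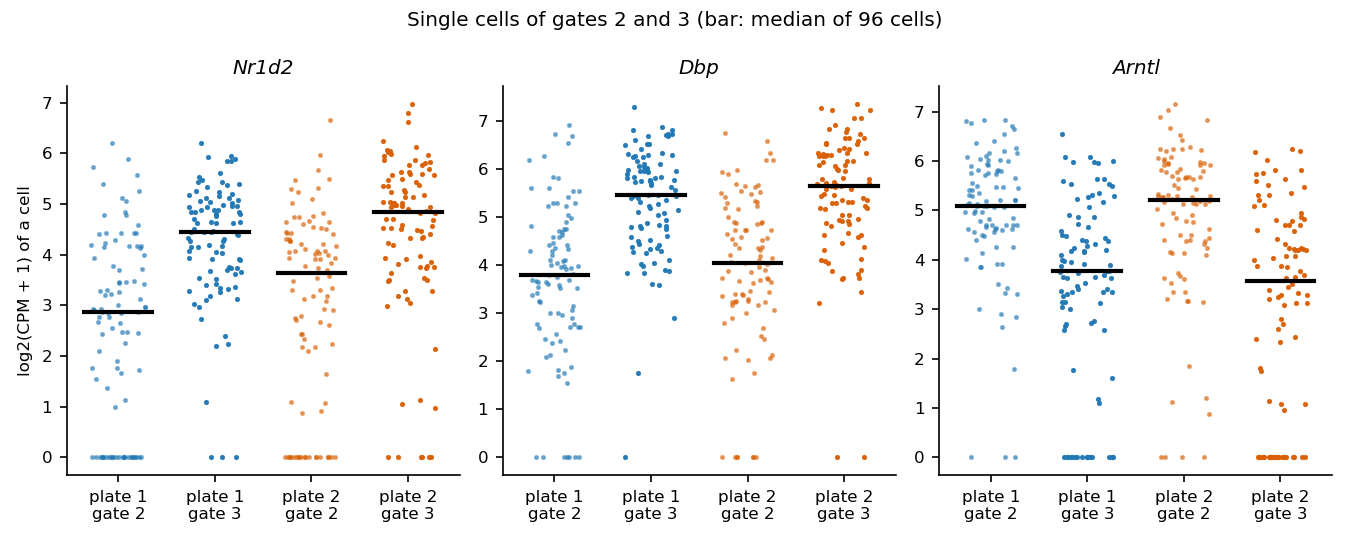
Nr1d2, Dbp and Arntl in single cells of gates 2 and 3 on each plate, as log2(CPM + 1) on the vertical axis, with 1 point per cell and a bar at the median of 96 cells. The median of Nr1d2 and Dbp lies higher in gate 3 on both plates and that of Arntl lower, while the points of the gates overlap.

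The same held along the plate. Within each gate the 6 well columns were summed one by one. For Dbp the columns of gate 2 ran from 13.3 to 27.8 CPM and those of gate 3 from 42.1 to 56.2 CPM on plate 1, and from 20.1 to 34.9 and from 46.9 to 69.1 CPM on plate 2. For Nr1d2 they ran from 8.59 to 16.1 and from 20.6 to 30.7 CPM on plate 1, and from 7.36 to 21.6 and from 24.3 to 34.8 CPM on plate 2. Neither gene had a column of gate 2 that reached the lowest column of gate 3 on the same plate, and the columns of Tef, Arntl and Cyp51 did not overlap either. Those of Per3 overlapped on plate 2, those of Mmp11 on plate 1, and those of Rnase4 and Erg28 on both plates. How many of all genes had columns without overlap was not counted. The columns hold the same cells as the sums, and these genes were already called, so this is a description.

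The step was then set beside its neighbours, from gate 1 to gate 2 and from gate 3 to gate 4. The gates are shared, so the 3 contrasts are not independent and a high gate 2 lowers one step as it raises another. Dbp had a log2 difference of 0.26 from gate 1 to gate 2 and of 0.50 from gate 3 to gate 4, against 1.27 here. Nr1d2 had 0.07 and 0.49, against 1.18. Arntl had -0.21 and -0.58, against -1.20, while Tef had 0.39 and 0.36, against 0.80. In contrast, YFP changed most at the first step, by 2.21, and by 1.23 at the last.

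The difference between the steps was tested gene by gene. This step was chosen because Dbp and Nr1d2 changed most here, so their excess and its p-values are descriptions. For Dbp the step from gate 2 to gate 3 exceeded that from gate 1 to gate 2 by 1.02 ± 0.12 log2, with an unadjusted p of 2.81e-05 and an adjusted p of 0.127 by edgeR. For Nr1d2 the excess was 1.11 ± 0.16 (unadjusted p of 0.000147, adjusted p of 0.247), and for Arntl -0.99 ± 0.15 (adjusted p of 0.248 by edgeR). Against the step from gate 3 to gate 4 the excess was 0.77 ± 0.11 for Dbp, 0.69 ± 0.15 for Nr1d2 and 0.83 ± 0.14 for Per3, where edgeR gave adjusted p-values of 0.468, 0.623 and 0.468. Over all genes edgeR called none in either comparison of steps, against 1475 (8% of genes) and 1324 (7.18%) at an unadjusted p under 0.05. No gene can therefore be called particular to this step. The neighbouring steps called 52 genes (0.282%) and 48 genes (0.26%).

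Among genes outside the clock, a sterol group stood out in direction. Cyp51, the sterol 14-demethylase, rose from 817 to 1049 CPM on plate 1 and from 932 to 1211 CPM on plate 2, by 0.36 ± 0.04 log2 with an adjusted p of 0.0307 by edgeR. Cyp51 overlaps Akap9 in the reference annotation, so reads may be shared. On the 4 sums of gates 2 and 3 alone Cyp51 was not called (0.36, adjusted p of 0.112 by edgeR). Erg28, an endoplasmic reticulum protein of sterol synthesis that is not in the list, rose from 96.4 to 134 CPM and from 112 to 160 CPM, by 0.49 ± 0.06 with an adjusted p of 0.0432, which was 0.0663 on those 4 sums. For Cyp51 and Erg28 both gate 3 sums lay above both gate 2 sums. At the neighbouring steps the differences were -0.04 and -0.07 for Cyp51 and 0.03 and -0.08 for Erg28, and no test of the difference of steps passed adjustment (0.261 and 0.468 for Cyp51, 0.376 and 0.468 for Erg28 by edgeR).

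Cyp51 was the only called member of the 18 genes of sterol and lipid synthesis, and its call was lost in 4 of 12 alternatives, with adjusted p-values up to 0.522 by edgeR. Of the 18, all had a positive difference, 17 were higher on both plates (26.8% of all genes were) and 15 had an unadjusted p under 0.05 in that direction (4.23% of all genes). All 18 reached a mean log2 CPM of 3, and among the 9014 genes that did so these shares were 28.8% and 5.68%. The median was 0.26, with 0.21 on plate 1 and 0.32 on plate 2, against -0.02 from gate 1 to gate 2 and -0.10 from gate 3 to gate 4. Scd2, a fatty acid desaturase and the most abundant, stood at 1299 and 1485 CPM on plate 1 and at 1476 and 1680 CPM on plate 2 (0.19 ± 0.04, adjusted p of 0.310 by edgeR). Some members were picked after their values were seen. Lss, which closes the sterol ring, stood at 84.4 and 119 CPM on plate 1 and at 113 and 174 CPM on plate 2 (0.56 ± 0.10, adjusted p of 0.177 by edgeR). Dhcr7, a sterol reductase, had 0.51 ± 0.08 and Sqle, the squalene epoxidase, 0.33 ± 0.06. Many of these genes are known targets of SREBP factors, so they are not independent of each other.

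**Figure D3:**
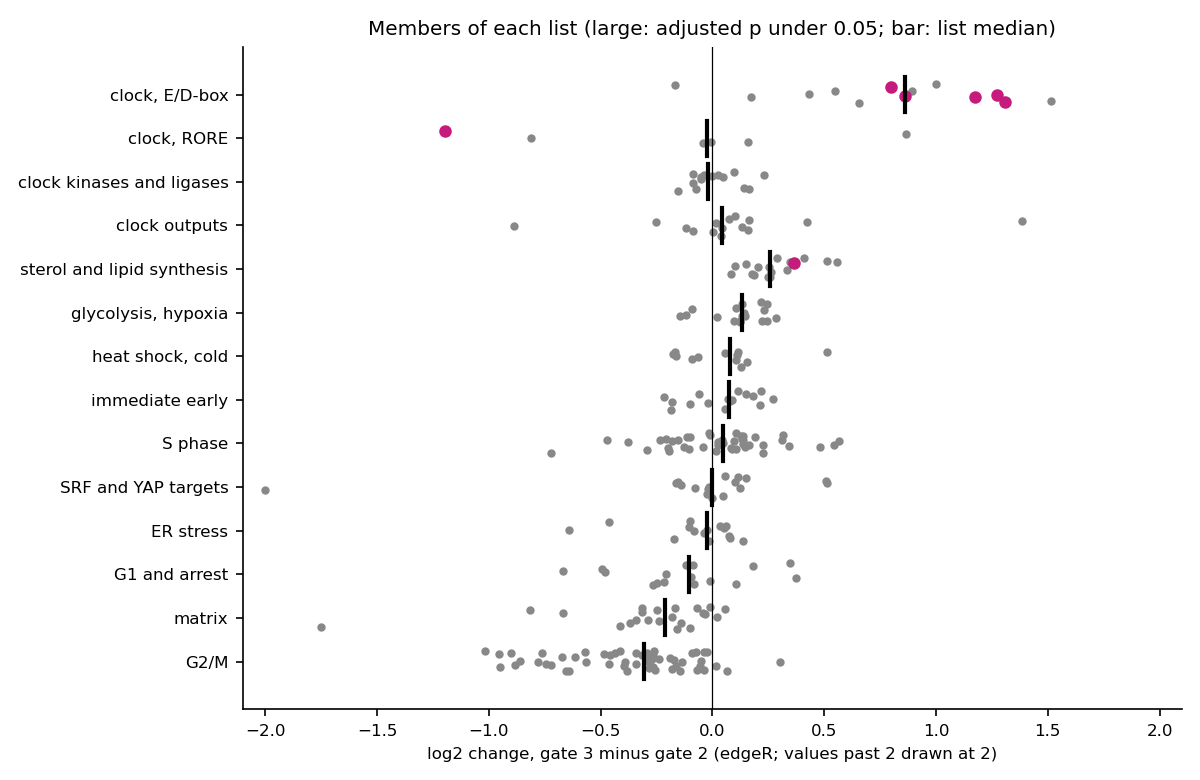
Log2 change from gate 2 to gate 3 (horizontal axis) of the tested members of 14 gene lists, with 1 point per gene, larger coloured points for genes with an adjusted p under 0.05, and a bar at each list's median. The E/D-box list has its median at 0.86, the sterol list at 0.26 with no member below 0, and the G2/M list at -0.31. A single value past the axis is drawn at its limit.

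Matrix genes leaned to the other side. Mmp11, stromelysin-3 and not in the list, fell from 121 to 68.8 CPM on plate 1 and from 109 to 59.4 CPM on plate 2, by -0.85 ± 0.06 log2 with an adjusted p of 0.00321 by edgeR. Of the 4 called lower genes it was the one that stood higher in gate 2 than in gate 1 on both plates, with 103 and 85.5 CPM in gate 1, and its difference between the steps, -1.14 ± 0.10, had the lowest adjusted p of all genes, 0.0713 by edgeR. In the reference annotation Mmp11 overlaps Chchd10, so reads may be shared there too. Of the 22 matrix genes none was called. In 20 of them the difference was negative, 16 were lower on both plates (27.4% of all genes were) and 10 had an unadjusted p under 0.05 in that direction (4.82% of all genes). Among genes with a mean log2 CPM of 3 or more, as 19 of the 22 had, these shares were 29.1% and 6.5%. The list's median was -0.21. With only the cells nearest the Venus gap, above the median of gate 2 and at or below that of gate 3, 4 members had such a p and the median was -0.033.

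Col1a1 and Fn1, the most abundant matrix genes, stood at 9277 and 8775 CPM and at 5437 and 4856 CPM in gates 2 and 3 of plate 1. On plate 2 they stood at 9313 and 8144 CPM and at 5688 and 4141 CPM. Their differences were -0.14 ± 0.06 and -0.31 ± 0.06, and edgeR gave adjusted p-values of 0.547 and 0.226. Bgn, the proteoglycan biglycan, was picked after its values were seen because it lay nearest the threshold. It stood at 4059 and 2808 CPM on plate 1 and at 3323 and 1899 CPM on plate 2, a difference of -0.67 ± 0.08 with an adjusted p of 0.0520 by edgeR. A gate 3 cell had the higher Bgn level in 36.1% and 37.8% of pairs.

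**Figure D4:**
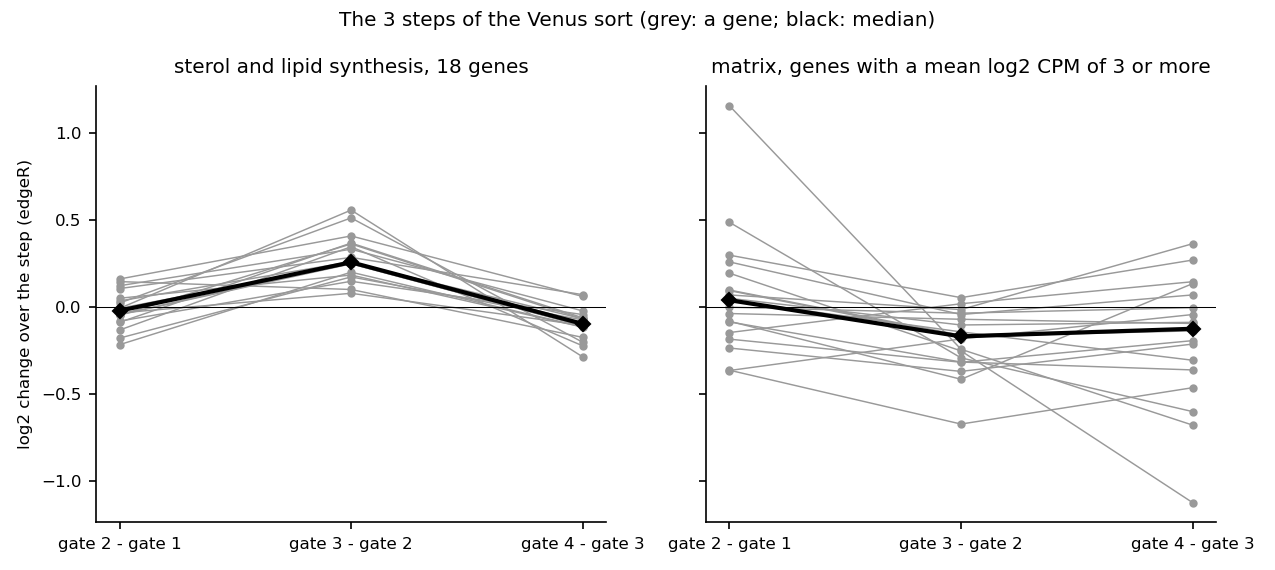
Log2 change (vertical axis) at the 3 steps of the sort for the 18 sterol and lipid genes and for the 19 more abundant matrix genes (mean log2 CPM of 3 or more), with 1 grey line per gene and the median in black. The sterol median is 0.26 at the step from gate 2 to gate 3 and -0.02 and -0.10 at its neighbours. Neighbouring steps share a gate.

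The 2 remaining called genes were unevenly spread over cells. Rnase4, a secreted ribonuclease, fell from 25.6 to 12.7 CPM on plate 1 and from 19.4 to 7.29 CPM on plate 2, by -1.21 ± 0.10 with an adjusted p of 0.00823 by edgeR. It had already changed by -1.42 from gate 1 to gate 2 and had 0.28 from gate 3 to gate 4. A count was present in 49 and 48 of 96 cells on plate 1 and in 45 and 39 of 96 on plate 2, while the upper quartile went from 44.4 to 15.1 CPM and from 20.8 to 8.01 CPM. Rnase4 overlaps Ang on the same strand, so reads of the pair may be shared. Kcnip4, a potassium channel subunit outside the abundance rule, had at most 2.28 CPM in these sums and a count in 11 and 5 of 96 gate 3 cells. Its fitted change of -2.93 ± 0.33 (adjusted p of 0.0432 by edgeR) rests on few reads, and 31 other gene models overlap it.

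The cell cycle lists were read plate by plate, since a level that shifts on 1 plate has no replicate. The G2/M list holds 54 genes of mitosis and its preparation. On plate 1 their median level was 4.06 log2 CPM in gate 2 and 4.24 in gate 3, with a median difference per gene of 0.034 and 31 genes higher. On plate 2 it was 4.83 and 4.02, with a median difference of -0.82 and 52 genes lower. The fit pools these 2 unlike plates and gave a median of -0.31 and no called gene. On the lower side 14 genes had an unadjusted p under 0.05 (4.82% of all genes). Among genes with a mean log2 CPM of 3 or more, as 49 of the 54 had, that share was 6.5%. Lower on both plates were 22 genes (27.4% of all genes were). The step was chosen with the G2/M shift on 1 plate known, so these counts and medians are descriptions. The mitotic kinase Aurka, picked after its values were seen as the gene with the most negative difference on plate 2, stood at 13.2 and 12.8 CPM on plate 1 and at 28.9 and 7.89 CPM on plate 2. Tubb4b and Jpt1, the most abundant members, had -0.07 ± 0.15 and -0.27 ± 0.06.

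Single cells show where that level sits. The median cell had a summed G2/M level of 1044 CPM in gate 2 and 987 CPM in gate 3 on plate 1, and of 1045 and 1076 CPM on plate 2. A few cells lay far above it. Above 2 times the median of all cells, at 2128 CPM, there were 7 and 8 of 96 cells on plate 1 (7.29% and 8.33%) and 13 and 9 on plate 2 (13.5%, exact binomial 95% interval 7.41% to 22.0%, and 9.38%, 4.38% to 17.1%). The intervals cover the sampling of cells within a plate and gate, and the numbers of such cells were not tested between gates.

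On plate 2 these cells had a median of 10817 CPM in gate 2 and 5996 CPM in gate 3, while on plate 1 the order was the other way, with 6808 and 9487 CPM. Of the 9 cells in gate 3 of plate 2, 3 lay within 20% of the limit, and above 3 times the median the values of plate 2 were 11662 and 8763 CPM. On plate 2 the cells above 2128 CPM carried 63.9% of the list's mean level in gate 2 and 43.9% in gate 3. The part from all other cells was 887 and 958 CPM. When cells high for the G2/M or the S phase list were left out, the median difference of the list was -0.01 on plate 1 and 0.18 on plate 2, where 43 cells of gates 2 and 3 on both plates were left out. The same lists chose those cells, so this is a description. On plate 2 the well columns had summed levels of 1045 to 4571 CPM in gate 2. Those of gate 3 had 1081 to 3069 CPM, so the ranges overlapped.

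The S phase list of 43 genes had a median difference of 0.28 on plate 1, with 37 genes higher, and of -0.15 on plate 2, with 31 lower. None was called. Slbp and Nasp, the most abundant, had -0.01 ± 0.06 and 0.10 ± 0.08. Without cells high for either list the medians were 0.09 and 0.07. For the clock genes the step was nearly as large without those cells. The edgeR test then called 18 genes, which included 11 of the 12 and all 6 called clock genes, with 1.24 for Dbp, 1.17 for Nr1d2 and -1.14 for Arntl.

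Of the remaining lists no member was called. Among 16 genes of G1 and cell cycle arrest, 6 had an unadjusted p under 0.05 on the lower side (4.82% of all genes) and 2 on the higher side (4.23%), with Gas1 and Btg1, the most abundant, at -0.25 ± 0.08 and -0.21 ± 0.06. Glycolysis and hypoxia genes had 15 of 18 positive differences and 7 with an unadjusted p under 0.05 on the higher side (4.23% of all genes). Pkm stood at 0.13 ± 0.04 and Gapdh at 0.23 ± 0.04. The ER stress list had a median of -0.02, the immediate early list 0.08, the heat shock and cold list 0.08 and the list of SRF and YAP targets 0.00. Hspa5 and Canx had -0.08 ± 0.05 and 0.07 ± 0.04, Dusp1 and Ier2 -0.18 ± 0.16 and -0.06 ± 0.06, Hsp90ab1 and Hspa8 0.06 ± 0.04 and -0.17 ± 0.05, and Cnn2 and Flna 0.05 ± 0.09 and -0.08 ± 0.06.

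Without the plate block edgeR called 5 genes, which were YFP, Nr1d1, Dbp, Per3 and Arntl. When only cells above the Venus median of gate 2 were set against cells at or below the median of gate 3, 3 genes were called, YFP, Nr1d1 and Dbp. Nr1d2 then had a difference of 0.93 and Arntl of -0.82, for which edgeR gave adjusted p-values of 0.0968 and 0.295, and Rnase4 had -0.27 against -1.21 with all cells. DESeq2 called 214 genes, with all 12 among them. In simulated sums of this design edgeR recovered 32.3%, 51.5% and 64.1% of genes changed by 0.5, 1 and 1.5 log2. These shares are over genes that passed the filter on low counts, and 5 of 17675 unchanged genes were called. The simulated levels differed in gate 3 only, with no difference between plates or among the other gates, unlike the data. Missing the threshold therefore does not show that a gene did not differ.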

How the data were processed

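Raw counts per gene and cell were used as the authors deposited them, with STAR 2.7.11a, SAMtools, bedtools, HTSeq and the builds GRCm39 and mm39 named per the submitters' processing notes, without their roles. Annotation, strand and molecular identifiers are not given in the sources used here. Cytometer detector areas and image intensities were deposited by the authors in arbitrary units from a sorting record with no stated scaling. Of 33757 features 24902 had a symbol, and the rest held 1.07% of counts.

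Cells with at least 1000 genes were summed per plate and gate, and the 8 sums (76042157 to 86612194 counts) entered the quasi-likelihood test of edgeR 4.0.16 under R 4.3.3 (TMM, filterByExpr, plate and gate as terms, 3 residual degrees of freedom). The gates were paired by the plate they share. Standard errors are the log2 change divided by the root of F, and single-plate differences use a prior count of 2. The genes named are the clock genes, reporters, up to 10 called genes in each direction that reached a mean log2 CPM of 3 and moved one way on both plates, and the called and 2 most abundant members of each list. Others are said to be picked after their values were seen. The comparison and the lists were chosen with earlier results of these data known. Of 319 list genes 11 were not analysed here.

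Alternatives used DESeq2 1.42.0, limma 3.58.1 (pseudocount 1) and other filters and cells. The edgeR step was tested on simulated data. Overlaps came from GENCODE vM21 and promoters from RefSeq GRCm38.p6, used for names and sequences and for no coordinates of the counts. Some items are not reported here.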

Additional observations from a re-analysis of the deposited data

Results flagged for a closer look

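The cell cycle lists differed between the plates at the step from gate 2 to gate 3. This step was chosen with the G2/M shift on 1 plate known. Over the G2/M genes the median log2 difference was 0.034 on plate 1, with 31 genes higher and 23 lower. On plate 2 it was -0.82, with 52 lower. Over the S phase genes it was 0.28 and -0.15. With thinning the G2/M values were 0.086 and -0.72, and the S phase values 0.30 and -0.040. The last had 20 genes higher and 23 lower. The same cells before thinning had a median of -0.14 on plate 2, with 15 genes higher and 28 lower. Thinning changes depth and also gives each cell equal weight, so the cause of the smaller value was not tested. Each plate gives 1 value per gate, so the difference between plates was not tested, and plate and H2B-iRFP sort cannot be told apart.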

How the results depend on the processing

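All 12 called genes kept their sign under all 12 alternatives. Against 12 genes called and 6 clock genes among them, DESeq2 called 214 and 12, no filter on low counts 96 and 10, thinning to 300000 counts 44 and 8, and the fit on the cells nearest the Venus gap called 3 genes, of which 2 were clock genes. The plates pair the gates, and with no replicate block 5 genes were called, 4 of them clock genes. The remaining alternatives called 12 to 18 genes, but the 4 sums of gates 2 and 3 alone lost Erg28 (adjusted p by edgeR 0.0663), Cyp51 (0.112) and Kcnip4 (0.0613), limma on mean CPM lost Cyp51 (0.0779) and Kcnip4 (0.196), and leaving out cells high for the cycle lists lost Rnase4 (0.0571). In the cells nearest the gap the matrix list had 4 members lower at an unadjusted p under 0.05, against 10, and a median of -0.033. On 1 plate alone no test is possible for lack of residual degrees of freedom, and Dbp had 1.24 to 1.30 and Nr1d2 1.09 to 1.25. The uncalled clock genes that turned sign were Hlf, at -0.050 with thinning, Usp2, at 0.12 without cells high for the cycle lists and Cry1, at 0.19 in the cells nearest the gap, and the cause was not tested. The G2/M median of plate 2, -0.82, was 0.18 without cells high for the cycle lists and 0.042 as a median over cells. Removing shallow cells was chosen after seeing the data and left 12 calls, all shared. Genes below 1 CPM, such as Hlf and Npas2, are limited by depth.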
